A study of Mus musculus with 4 samples.

Results

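Basophil and mast cell progenitors were chosen by the RNA of 4 genes in mouse bone marrow libraries measured with single-cell RNA sequencing and barcoded surface antibodies. A cell was taken as a member when its summed unique molecular identifiers (UMIs, the molecule counts of a cell) of Mcpt8, Prss34, Ms4a2 and Fcer1a reached at least 10 per 10000 gene UMIs. Barcodes entered the choice with 500 or more genes detected, 1000 or more UMIs of genes and no more than 10% of UMIs from mitochondrial genes. The rule took 306 of the 19758 filtered cells of the control, Mll3-deleted and Mll4-deleted libraries, out of 27166 filtered cells in all 4 libraries of the series. By library these were 54 control members, 22 with Mll3 deleted and 230 with Mll4 deleted. The values of these 4 genes are therefore a description of the choice, and everything said of them below is given without a test.

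All libraries came from bone marrow cells that were positive for CD45.2 and for Kit, 10 weeks after transplantation. There was 1 library per group: control, deleted for Mll3, deleted for Mll4, and deleted for both. Mll3 and Mll4 are the histone methyltransferases encoded by Kmt2c and Kmt2d, and the series asks what they do in blood stem cell and myeloid identity and in B-cell priming. The labels used here give no allele, deleter strain, sex, age or number of animals, and do not say what the 2 hashtag antibodies in each library mark. With 1 library per group no p-value was computed. The 95% intervals given below cover the error of counting, and what is compared is always a pair of libraries.

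Basophils and mast cells are granulocytes that carry the high-affinity receptor for immunoglobulin E (IgE) and store proteases, histamine and proteoglycans in granules. In mouse marrow both arise from Kit-positive progenitors that express Gata2. Mitf is known for its part in the mast cell branch and Cebpa for its part in the basophil branch. Mature mast cells keep high Kit, the receptor for stem cell factor, whereas mature basophils carry little of it, so a sort on Kit bears on which stages of each branch are seen here.

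Several of the granule protease genes read here lie on 2 chromosomes, while Cpa3 lies on chromosome 3. On chromosome 14 (GRCm38, GENCODE M21) Cma1 spans 55941451 to 55944675, Mcpt4 spans 56059629 to 56062313, Mcpt8 spans 56082166 to 56085273 and Gzmb spans 56258838 to 56262260, all on the minus strand. On chromosome 17 Prss34 spans 25298394 to 25300165 and Tpsb2 spans 25366305 to 25369098, both on the plus strand. The promoters of some genes that the members are read by are printed here as a description. That of Tpsb2 is not printed, since the RefSeq promoters used held no entry for it. The printed windows run from 250 bases before to 50 bases after the RefSeq start site (GRCm38.p6), on the strand of the gene. Capitals mark every match to GATAA on either strand (TTATC is the same motif on the other strand), the core of the site that GATA factors recognise.
Cma1, chr14:55944626-55944925, minus strand: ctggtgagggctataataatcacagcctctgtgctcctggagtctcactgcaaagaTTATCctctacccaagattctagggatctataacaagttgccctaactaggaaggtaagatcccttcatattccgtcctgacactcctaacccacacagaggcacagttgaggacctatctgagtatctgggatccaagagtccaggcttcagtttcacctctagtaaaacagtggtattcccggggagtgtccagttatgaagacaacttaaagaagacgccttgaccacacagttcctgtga
Mcpt4, chr14:56062261-56062560, minus strand: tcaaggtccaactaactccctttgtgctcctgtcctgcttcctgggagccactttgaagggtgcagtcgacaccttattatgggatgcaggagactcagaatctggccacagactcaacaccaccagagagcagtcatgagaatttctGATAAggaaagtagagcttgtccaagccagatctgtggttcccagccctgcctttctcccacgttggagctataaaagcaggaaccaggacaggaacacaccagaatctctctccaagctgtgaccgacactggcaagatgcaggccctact
Mcpt8, chr14:56085148-56085447, minus strand: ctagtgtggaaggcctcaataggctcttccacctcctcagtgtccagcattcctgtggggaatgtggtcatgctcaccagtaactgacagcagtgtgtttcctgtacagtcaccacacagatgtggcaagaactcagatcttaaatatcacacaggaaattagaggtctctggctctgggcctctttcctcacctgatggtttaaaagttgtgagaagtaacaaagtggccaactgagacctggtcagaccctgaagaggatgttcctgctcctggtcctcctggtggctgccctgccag
Prss34, chr17:25298144-25298443, plus strand: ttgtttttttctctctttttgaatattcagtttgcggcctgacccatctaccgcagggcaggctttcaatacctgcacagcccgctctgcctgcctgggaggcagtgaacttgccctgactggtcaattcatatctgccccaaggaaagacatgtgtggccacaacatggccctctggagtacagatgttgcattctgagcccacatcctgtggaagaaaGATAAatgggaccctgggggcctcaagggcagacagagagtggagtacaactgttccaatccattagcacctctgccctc
Cpa3, chr3:20242132-20242431, minus strand: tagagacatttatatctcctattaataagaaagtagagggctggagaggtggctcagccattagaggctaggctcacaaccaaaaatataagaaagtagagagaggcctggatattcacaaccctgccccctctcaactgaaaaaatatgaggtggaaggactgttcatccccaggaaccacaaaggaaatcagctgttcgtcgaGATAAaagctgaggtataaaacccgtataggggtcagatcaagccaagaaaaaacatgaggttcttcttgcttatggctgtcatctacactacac
Ms4a2, chr19:11623670-11623969, minus strand: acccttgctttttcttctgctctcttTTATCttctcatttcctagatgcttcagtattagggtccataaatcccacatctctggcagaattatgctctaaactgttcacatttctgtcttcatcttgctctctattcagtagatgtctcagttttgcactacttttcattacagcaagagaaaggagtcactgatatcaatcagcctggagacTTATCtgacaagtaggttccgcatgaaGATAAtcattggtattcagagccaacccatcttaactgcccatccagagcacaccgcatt
The motif was found 3 times in the window of Ms4a2, 1 time each in those of Cma1, Mcpt4, Prss34 and Cpa3, and 0 times in that of Mcpt8. In windows that were read but are not printed, it was found 1 time for Fcer1a and 0 times each for Gzmb and Hdc. It occurred in 25.4% of the 32851 RefSeq promoter windows of that length. A match is a run of letters and was not tested for binding.

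Depth differed between the libraries. The median member held 10902 gene UMIs in control, 11430 with Mll3 deleted and 3012.5 with Mll4 deleted, and the other cells of the same libraries held 16104, 17537 and 5282. The members' UMIs summed to 727394, 298344 and 794147. Because a cell of 3000 UMIs passes the rule with 3 UMIs, the median member rested on 19.5, 25.5 and 7 UMIs of the rule genes, and 13 members of the Mll4-deleted library rested on fewer than 3. No barcode of a member was shared between libraries, and any pair of libraries shared 9 to 24 barcodes in all. Kmt2c stood at 68.7 counts per 1000000 UMIs (CPM) in control members, 46.9 with Mll3 deleted and 126 with Mll4 deleted. Kmt2d stood at 27.5, 16.8 and 31.5 CPM, from 20, 5 and 25 UMIs. The Kmt2d transcript was thus not lower in members of the library labelled Mll4 deleted (log2 ratio 0.19, interval -0.71 to 1.12). A 3′ library does not read a deleted exon, so these counts check the labels only in part. Xist was detected in every control and Mll3-deleted member and had 0 UMIs in members of the Mll4-deleted library, where 4 Y-linked genes together reached 191 CPM against 0 in the members of the other libraries. Sex and the Mll4 label therefore cannot be told apart.

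Members carried the RNA of the basophil and mast cell lineages well above the level of the other cells of their library. The 5 genes given as marks of these cells, Mcpt8, Prss34, Ms4a2, Cpa3 and Cma1, were all higher in members than in other cells in each of the 3 libraries. Of them, Cpa3 and Cma1 played no part in the rule. Cpa3, the carboxypeptidase of mast cell and basophil granules, stood at 1675 CPM in control members against 28.1 in other control cells. The corresponding values were 1056 against 13.9 CPM with Mll3 deleted and 6125 against 112 CPM with Mll4 deleted. Hdc, which makes histamine, stood at 157, 168 and 184 CPM in members against 24.1, 19.5 and 26.7 CPM in other cells, in the order control, Mll3-deleted, Mll4-deleted. Gata2 stood at 553, 426 and 679 CPM in members against 58.6, 44.9 and 53.6 CPM in other cells. On the basophil side, 7 of 7 markers were higher in members than in other cells in each library. Of these, Mcpt8 and Prss34 were part of the rule, which fixes their direction, and the other 5 (Cd200r3, Itga2, Il6, Gzmb and Csf1) were not. Gzmb and Il6 were higher in the Cma1-led cluster given below than in the Prss34-led one, and Csf1 was lower. Their means were 22.4, 1.04 and 0.17 per 10000 against 0.53, 0.14 and 1.07. Higher Gzmb and Il6 in members thus do not set the basophil side apart from the mast cell side. On the mast cell side, 5 of 7 markers (Mcpt1, Mcpt4, Mcpt9, Tpsab1 and Tpsb2) had 0 UMIs in control and Mll3-deleted members, and 2 (Mcpt1 and Mcpt9) had 0 UMIs in Mll4-deleted members. Of the mast cell markers, control and Mll3-deleted members thus held Cma1 and Mitf, and Mll4-deleted members held these with Mcpt4, Tpsb2 and 1 UMI of Tpsab1.

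Markers of other cell types were also read in the members. The 8 neutrophil markers summed to 1303 CPM in control members, 25585 in Mll3-deleted members and 12262 in Mll4-deleted members, below the 58691, 38944 and 176010 CPM of the other cells. The median member held 13.5, 12.4 and 49.2 of these UMIs per 10000, and 0, 2 and 29 members held over 100 per 10000. The 6 granulocyte progenitor markers summed to 4023, 5249 and 2585 CPM in members, and the medians per cell were 26.4, 35.7 and 12.1 per 10000. Of the 8 eosinophil markers, 2, 4 and 0 had no UMI, and they summed to 1115, 141 and 1272 CPM. In control 99% of the UMIs of Prg2, an eosinophil granule protein, came from 1 member. The 8 erythroid markers summed to 564, 670 and 183 CPM, and the 7 megakaryocyte markers to 173, 97.2 and 307 CPM. Members positive for both hashtags numbered 2 of 54, 1 of 22 and 4 of 230.

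The share of members differed between the libraries in opposite directions from control. Members made up 0.695% of filtered control cells (interval 0.523 to 0.906), 0.347% with Mll3 deleted (0.218 to 0.525) and 4.07% with Mll4 deleted (3.57 to 4.62). The share was 5.86 times that of control with Mll4 deleted (4.34 to 8.03) and 0.499 times with Mll3 deleted (0.289 to 0.833). In the library deleted for both genes the same rule took 5 of 7408 cells, 0.0675% (0.0219 to 0.157), which is 0.0971 times the share of control. The number of cells just below the threshold, at 8 to 10 per 10000, was 16, 9 and 23 in control, Mll3-deleted and Mll4-deleted, and just above it, at 10 to 12, it was 12, 4 and 26.

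**Figure D1:**
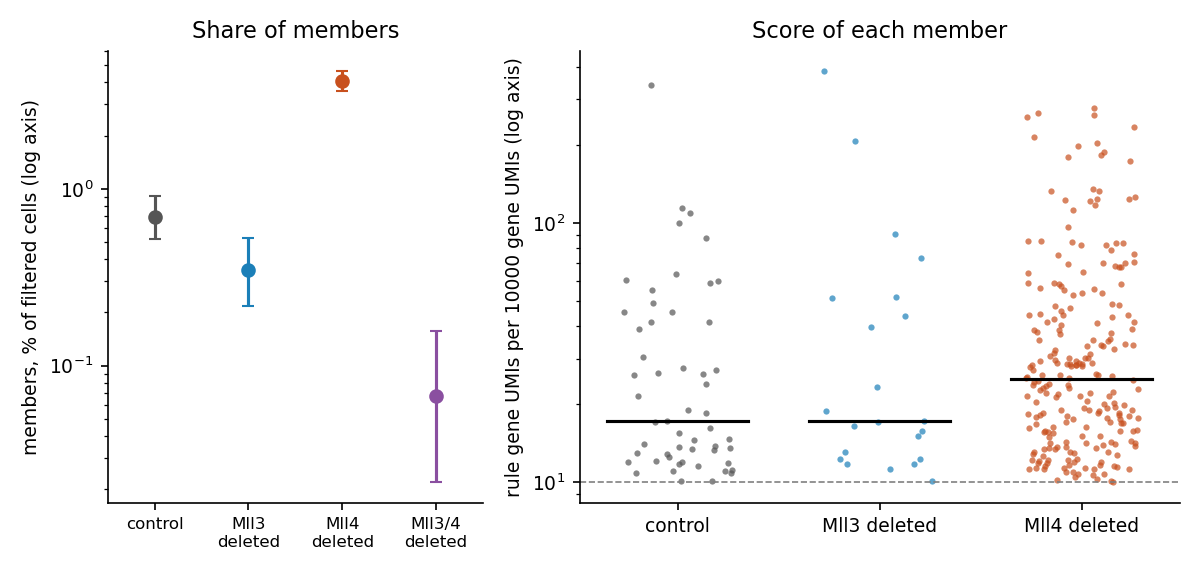
Share of members in each library with its exact 95% binomial interval (left, log axis, in percent of filtered cells) and the summed UMIs of the 4 rule genes per 10000 gene UMIs in each member (right, log axis, sideways position random, bar at the median, dashed line at the threshold of 10). The Mll4-deleted library stands highest at 4.07% and the library deleted for both genes lowest at 0.0675%, and the median score is 17.2 in control members, 17.2 in Mll3-deleted and 25 in Mll4-deleted members.

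Depth and the mix of the other cells both moved with the share in the Mll4-deleted library. Among cells with at least 3000 gene UMIs, members were 0.721% of control cells, 0.367% with Mll3 deleted and 2.38% with Mll4 deleted, where the log2 ratio to control was 1.72 in place of 2.55. With every cell thinned to 2000 UMIs before the rule was applied, the shares were 1.21%, 0.602% and 4.06%, and the log2 ratio was 1.75. Leaving out cells rich in neutrophil markers (over 500 per 10000), an alternative chosen after seeing the data, kept 5773 of 7768, 5129 of 6341 and 2677 of 5649 filtered cells. It gave shares of 0.935%, 0.39% and 8.48%, and a log2 ratio of 3.18. The Mll4-deleted library stood above control and the Mll3-deleted library below it in each of these settings.

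Mcpt8 and Prss34, serine proteases of basophil granules, followed different patterns over the libraries. Mcpt8 stood at 1691 CPM in control members (interval 1598 to 1788), 2132 in Mll3-deleted members (1969 to 2304) and 2386 in Mll4-deleted members (2280 to 2496). It was detected in 72.2%, 81.8% and 48.3% of members, against 10.8%, 7.2% and 4.6% of other cells. After each cell was thinned to 1000 UMIs the shares of members were 44.4%, 50% and 40%, which their intervals do not separate. Without the members rich in neutrophil and granulocyte markers (over 100 per 10000), 6 of control, 5 of the Mll3-deleted and 64 of the Mll4-deleted library, Mcpt8 stood at 1324, 590 and 2013 CPM, so that the Mll3-deleted members lay below control and not above it. Without the highest Scrublet (doublet) scores it stood at 1523, 1331 and 2403 CPM. Prss34 stood at 564 CPM in control (510 to 621), 2102 with Mll3 deleted (1940 to 2273) and 180 with Mll4 deleted (152 to 212). Its cells were few: 11 of 54 members, 6 of 22 and 9 of 230, of which the highest cell alone gave 56%, 62% and 37% of the UMIs. The sums of Prss34 thus rested largely on 1 cell per library, while its share of cells, 20.4%, 27.3% and 3.9%, was lowest in the Mll4-deleted library. Without the neutrophil-rich members 249, 117 and 1 of its 410, 627 and 143 UMIs were left. Thinned to 1000 UMIs, Prss34 was found in 11.1% (4.2 to 22.6), 22.7% (7.8 to 45.4) and 3.5% (1.5 to 6.7) of members.

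The other 2 genes of the rule encode chains of the IgE receptor. Ms4a2, the beta chain, stood at 836, 902 and 1132 CPM in control, Mll3-deleted and Mll4-deleted members. Fcer1a, the alpha chain, stood at 307, 265 and 565 CPM. Members with Mcpt8 or Prss34 UMIs were 40 of 54 in control, 18 of 22 with Mll3 deleted and 112 of 230 with Mll4 deleted. The other 14, 4 and 118 members passed the rule on Ms4a2 and Fcer1a alone. The median share of a member's score that came from the 2 protease genes was 36.1%, 34.1% and 0%.

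Within the score, the low and the high end held different genes. In control, members at 10 to 20 per 10000 numbered 30 and had 405 CPM of Mcpt8 and 28.2 of Prss34, while the 4 members at 100 or more had 7131 and 5545 CPM. Cpa3 was closer between the ends, at 1381 and 2772 CPM. In the Mll4-deleted library the 93 members at 10 to 20 had 122 CPM of Mcpt8 but already 3702 CPM of Cpa3 and 1480 CPM of Cma1. The 31 members at 50 to 100 had the highest levels of these last 2 genes, 11213 and 4091 CPM, and the 22 members at 100 or more had 6798 and 1963 CPM.

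The RNA of several mast cell proteases was higher in Mll4-deleted than in control members. Cma1, the chymase of connective tissue mast cells, stood at 173 CPM in control members (144 to 206), 46.9 in Mll3-deleted members (26 to 79) and 2278 in Mll4-deleted members (2174 to 2385). The Mll4-deleted value exceeded control by 3.71 on the log2 scale (pseudocount of 1 CPM, interval 3.46 to 3.99). The interval of the Mll3-deleted value lay below that of control, but these intervals do not measure the spread between cells. The highest cell gave 50% of the Cma1 UMIs with Mll3 deleted and 33% in control. Cma1 was detected in 8 of 54, 3 of 22 and 83 of 230 members, which after thinning was 7.4%, 4.5% and 32.6% (26.6 to 39.1). Other cells with a Cma1 UMI were 0.1%, 0.2% and 2.3%. Mcpt4, another chymase of connective tissue mast cells, had 0 UMIs in control and Mll3-deleted members and 392 UMIs in 19 Mll4-deleted members (494 CPM, 446 to 545). Set against a floor of 3 UMIs over the control members, this is at least 119.7-fold higher. Tpsb2, a mast cell tryptase, had 0, 0 and 130 UMIs, the last in 17 members, at least 39.7-fold higher than control on the same floor. Serpinb1a, an inhibitor of serine proteases, stood at 243 CPM in control and 539 in Mll4-deleted members (log2 1.14).

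Cpa3, whose levels are given above, exceeded control by 1.87 on the log2 scale in Mll4-deleted members. The remaining granule genes followed no single direction. Gzmb, granzyme B, stood at 847, 392 and 922 CPM. Its cells were 35.2%, 22.7% and 56.5% of members, and 25.9%, 18.2% and 44.3% after thinning. Mcpt2, a chymase of mucosal mast cells, had 222 UMIs in control, all from 1 member, 1 UMI with Mll3 deleted and 31 UMIs from 8 members with Mll4 deleted, so its lower sums there depend on that control cell. Srgn, the core protein of the granule proteoglycan, stood at 3178, 2896 and 2204 CPM and was detected in 100%, 100% and 97.4% of members. Cd63, a granule membrane protein, stood at 1153, 959 and 734 CPM, and Ctsg, cathepsin G, at 1526, 1699 and 953 CPM.

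**Figure D2:**
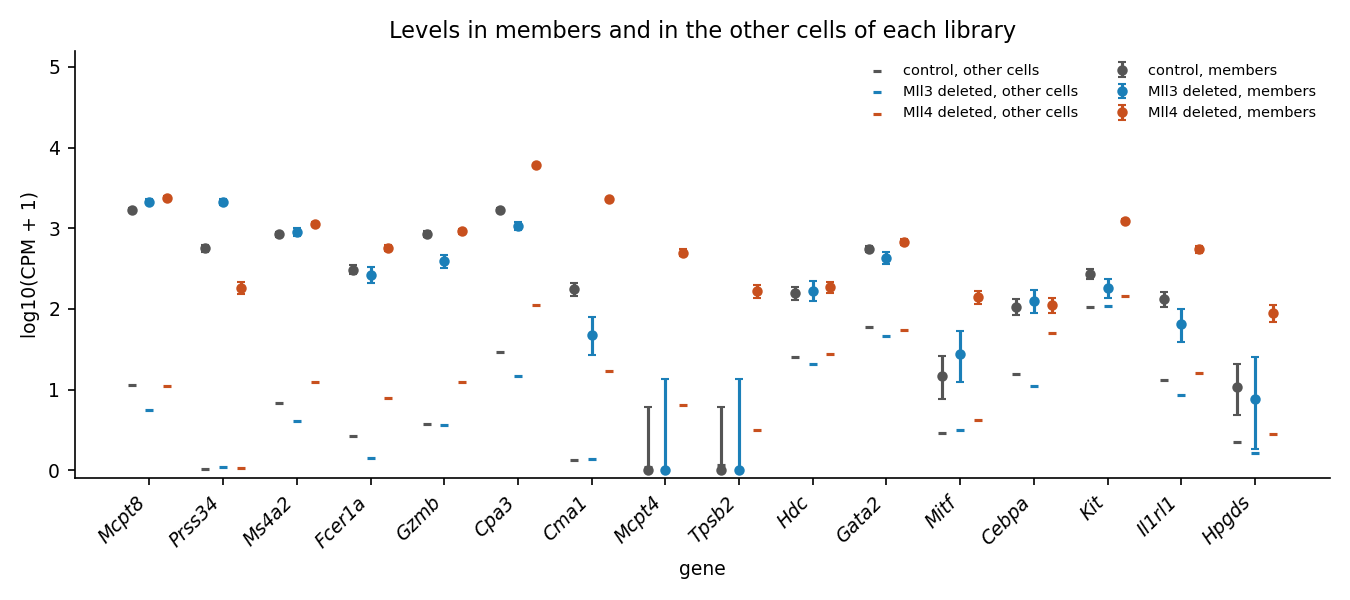
Levels of 16 genes in members (points, with the exact 95% Poisson interval of the UMI sum) and in the other cells of the same library (short bars), as log10 of CPM plus 1. Mcpt4 and Tpsb2 lie at 0 in control and Mll3-deleted members and reach 494 and 164 CPM in Mll4-deleted members, while Gata2 and Hdc lie close together in the 3 libraries.

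The cells with Cma1 were set beside those with Mcpt8 and Prss34, 2 genes of the rule, as a description. All 8 control members and all 3 Mll3-deleted members with Cma1 also had Mcpt8. In the Mll4-deleted library 52 members had both and 31 had Cma1 without Mcpt8, at a lower depth per cell. Cma1 and Prss34 were found together in 1 control member, 0 Mll3-deleted members and 0 Mll4-deleted members, where cells with Prss34 numbered 11, 6 and 9. Members with at least 10 Cma1 UMIs per 10000 numbered 5, 1 and 73, and 2, 3 and 20 cells outside the rule reached the same level. Of the 20, 13 exceeded 50 per 10000, so the rule missed some cells with high Cma1 in the Mll4-deleted library.

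**Figure D3:**
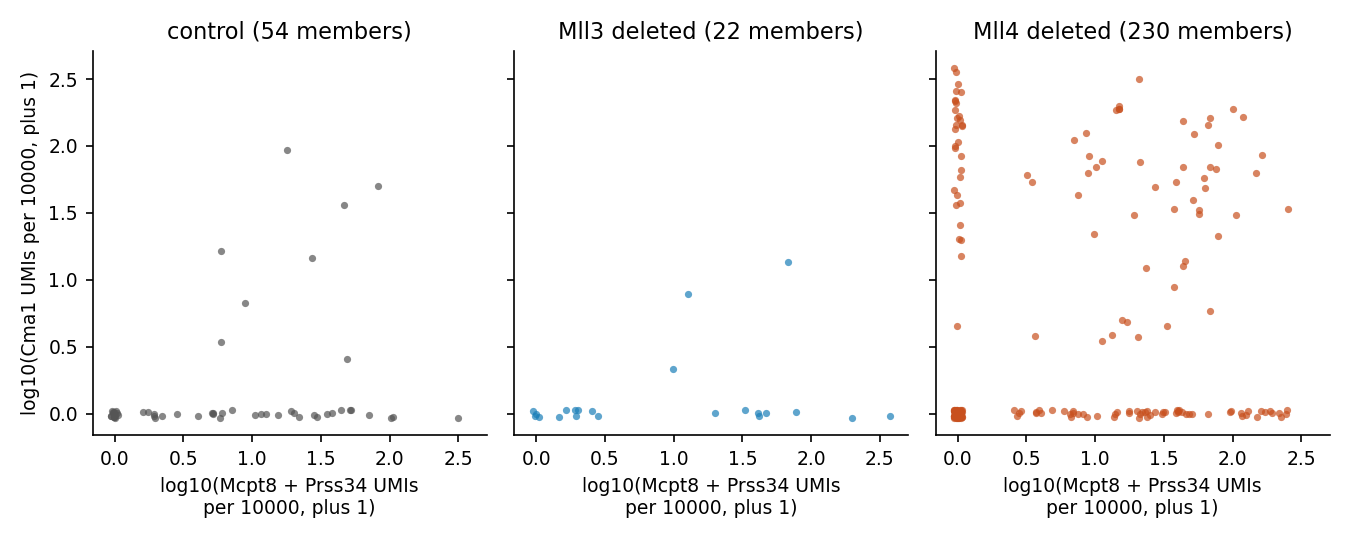
Each point is 1 member, placed by log10 of its Mcpt8 plus Prss34 UMIs per 10000 (plus 1) and by log10 of its Cma1 UMIs per 10000 (plus 1), with a small random shift. In the Mll4-deleted library 31 members with Cma1 have no Mcpt8 UMI and form the upper left column, where the control and Mll3-deleted libraries have 0 members.

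Over all genes, the Mll4-deleted members differed from control members by 2-fold or more in 11.9% of the 2974 genes with at least 50 UMIs in either library. Of these genes 252 (8.47%) were higher and 102 (3.43%) were lower, and the median log2 ratio was 0.15. Of the 252, 182 reached 50 UMIs in the Mll4-deleted members alone, and of the 102, 59 in control members alone. Such genes could enter only through the library where they are high, so the counts and medians of lists below are descriptions of the genes that entered. Of the 252, 86 were also 2-fold higher in the other cells of the library, and of the 102, 42 were also 2-fold lower there. The 8 neutrophil markers summed to 176010 CPM in those other cells against 58691 in other control cells. Ratios in other cells, here and below, thus compare unlike mixes of cells, and the part of the mix was not tested. Scaling by edgeR's trimmed mean of M values (TMM) moved the median to -0.06 and the calls to 164 higher and 234 lower, so small differences are to be read against that shift of all genes. Among members with at least 3000 UMIs, 107 genes were higher and 90 lower. Of the 14 granule genes tested that were not in the rule, 5 were 2-fold higher (Cpa3, Cma1, Mcpt4, Tpsb2 and Serpinb1a) and 1 was lower (Mcpt2). Mcpt4 and Tpsb2 reached 50 UMIs in Mll4-deleted members alone and Mcpt2 in control alone. Over the list with the rule genes the median log2 ratio was 0.16, and it turned to -0.05 with TMM scaling and -0.24 among members with at least 3000 UMIs. Serpinb1a fell under 2-fold with TMM scaling (0.94).

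Of the genes whose proteins signal from the IgE receptor, 5 had a 2-fold higher RNA level in Mll4-deleted members. These were 5 of 13 genes tested that were not in the rule, and 0 were lower, against 8.47% and 3.43% of all genes. Lat2 and Inpp5d reached 50 UMIs in both libraries, and Lyn, Plcg1 and Prkcb in Mll4-deleted members alone. Over the 13 genes the median log2 ratio was 0.61, and it was 0.15 over all genes tested. With the 2 rule genes of the list the median was 0.60 in the other cells. Lyn, the kinase that starts receptor signalling, stood at 56.4 CPM in control and 137 in Mll4-deleted members (log2 1.27) and differed by 1.58 in the other cells. Lat2, an adaptor of the receptor, stood at 151 and 387 CPM (log2 1.35, 1.04 to 1.68) and differed by -0.58 in the other cells. Inpp5d, the lipid phosphatase SHIP1 that limits the signal, stood at 83.9 and 200.2 CPM (log2 1.25) and differed by 0.25 in the other cells. Prkcb, a protein kinase C, stood at 23.4 and 140 CPM (log2 2.53) from 7 and 65 cells, and differed by 1.68 in the other cells. Plcg1, a phospholipase of the pathway, stood at 33.0 and 69.3 CPM (log2 1.05) and differed by -0.13 in the other cells. UMIs in control and Mll4-deleted members were 41 and 109 for Lyn, 17 and 111 for Prkcb and 24 and 55 for Plcg1. Fcer1g, the gamma chain, was level at 488 and 463 CPM. Among members with at least 3000 UMIs, Lyn (0.88), Lat2 (0.67) and Inpp5d (0.60) were under 2-fold and the list median was 0.23, against 0.02 over all genes. Plcg1 was under 2-fold with TMM scaling (0.84).

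Transcripts for the synthesis of lipid mediators went both ways. Hpgds, the synthase of prostaglandin D2, stood at 9.6 CPM in control (7 UMIs), 6.7 in Mll3-deleted (2 UMIs) and 86.9 in Mll4-deleted members (69 UMIs in 49 cells; log2 3.05 against control, 2.06 to 4.54). Alox5ap, the partner protein of 5-lipoxygenase in leukotriene synthesis, stood at 307, 382 and 146 CPM. Its Mll4-deleted level was lower than control by 1.06 on the log2 scale, while in the other cells of that library it was higher by 0.64. Of the 7 genes of this list tested, these were the only 2 past 2-fold, 1 in each direction, against 8.47% of all genes higher and 3.43% lower, and the median was 0.55. Hpgds reached 50 UMIs in Mll4-deleted members alone. With cells of at least 3000 UMIs the median was 0.06 and Alox5ap stood at -0.97.

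The RNA of Kit and of the receptor for interleukin 33 was higher in Mll4-deleted members. Kit stood at 274 CPM in control members (237 to 314), 181 in Mll3-deleted members (136 to 236) and 1224 in Mll4-deleted members (1148 to 1303). The Mll4-deleted value exceeded control by 2.16 on the log2 scale (1.94 to 2.39), against 0.43 in the other cells of the same libraries. All cells had been sorted on Kit protein. Il1rl1, the receptor chain for interleukin 33, stood at 131, 63.7 and 549 CPM (log2 2.06 in the Mll4-deleted library, and 0.29 in its other cells). Il6, a cytokine made by both cell types, stood at 17.9 and 65.5 CPM in control and Mll4-deleted members, and Ccr2, a chemokine receptor, at 12.4 and 93.2 CPM with a like difference in other cells (2.82 and 2.62). These 4 were the only genes of 12 tested past 2-fold, 0 were lower, and the list median was 0.41, where 8.47% of all genes were higher and 3.43% lower. Il6 (13 and 52 UMIs) and Ccr2 (9 and 74 UMIs) entered through the Mll4-deleted members alone. With cells of at least 3000 UMIs, Kit still exceeded control by 1.57, Il1rl1 by 0.97, and the list median was -0.21.

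Among surface proteins 4 of 14 tested genes were 2-fold higher and 1 was lower in Mll4-deleted members, beside 8.47% and 3.43% of all genes. Of the 4, Itga4 alone reached 50 UMIs in both libraries. Cd200r3, an activating receptor of basophils and mast cells, stood at 19.2, 6.7 and 104 CPM in control, Mll3-deleted and Mll4-deleted members. Itga4, the alpha 4 integrin, stood at 514 and 1130 CPM in control and Mll4-deleted members (log2 1.13) and differed by -0.30 in other cells. With TMM scaling Itga4 stood at 0.93. Cd44 and Adgre5, adhesion receptors, stood at 37.1 and 39.9 CPM in control and 89.4 and 94.4 CPM in Mll4-deleted members. Log2 ratios of Cd200r3, Cd44 and Adgre5 were 2.38, 1.25 and 1.22 in members. In the other cells these genes were higher too, by 1.49, 1.01 and 0.81. Cd9, a tetraspanin, was lower, at 190, 218 and 79.3 CPM in the order control, Mll3-deleted, Mll4-deleted (log2 -1.25 for the last), although it was higher by 0.62 in the other cells of the Mll4-deleted library. The median of the list was 0.49, and -0.22 among members with at least 3000 UMIs.

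Of 19 lineage transcription factors tested, 3 were 2-fold higher in Mll4-deleted members and 0 were lower, beside 8.47% and 3.43% of all genes. Mitf reached 50 UMIs in Mll4-deleted members alone, and the other 2, Ikzf1 and Meis1, fell under 2-fold with TMM scaling. Mitf, the factor of the mast cell branch, stood at 13.7 CPM in control (7 to 25), 26.8 in Mll3-deleted (12 to 53) and 139 in Mll4-deleted members (114 to 167). Its log2 ratio to control was 3.24 in Mll4-deleted members and 0.54 in the other cells. It was detected in 14.8%, 22.7% and 34.8% of members, and in 5.6%, 4.5% and 17.8% after thinning. Ikzf1 and Meis1 were higher by 1.06 and 1.07, and with TMM scaling by 0.85 and 0.86. Gata2 stood at 553 and 679 CPM and Runx1 at 404 and 452 CPM in control and Mll4-deleted members. Cebpa, the factor of the basophil branch, had like levels, at 106, 124 and 111 CPM, and was detected in 59.3%, 68.2% and 15.7% of members (32, 15 and 36 cells), and in 14.8% (6.6 to 27.1), 18.2% (5.2 to 40.3) and 4.8% (2.4 to 8.4) after thinning, where the intervals overlap.

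Mitf and Cebpa were read together in few members. In the Mll4-deleted library 77 members had Mitf alone, 33 had Cebpa alone and 3 had both. In control 6 had Mitf alone, 30 had Cebpa alone and 2 had both, and with Mll3 deleted these numbers were 2, 12 and 3. Of the 80 Mll4-deleted members with Mitf, 51 also had Cma1, and of the 36 with Cebpa, 2 had Cma1 and 9 had Prss34. At these depths a cell without a UMI may still express the gene.

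Outside the lists, some of the largest differences were seen mainly in members and others in the rest of the library as well. Basp1 stood at 52.2 CPM in control and 456 in Mll4-deleted members (log2 3.1, and 0.65 in other cells), and Tns1 at 26.1 and 104 CPM (1.96, and -0.69 in other cells). The neutrophil-associated genes S100a8, S100a9, Ngp, Lcn2 and Wfdc21 were higher in Mll4-deleted members by 3.44, 3.15, 3.69, 3.5 and 4.22, and in the other cells by 2.08, 1.5, 1.41, 1.38 and 2.54. Single members gave 23% to 29% of their UMIs. Without the members rich in neutrophil and granulocyte markers S100a8, S100a9, Ngp and Lcn2 stood at 2.01, 1.68, 2.02 and 2.28. Without the highest Scrublet scores these stood at 1.96, 1.69, 1.94 and 2.33, and Wfdc21 at 2.89. The part of free RNA or of other cells in these values was not tested. On the lower side Apoe, apolipoprotein E, stood at 1665 and 190 CPM (log2 -3.12), and was lower by 2.35 on the log2 scale in other cells. Lgals1, galectin 1, stood at 799 and 238 CPM, with -1.74 in members and -1.84 in other cells. Plac8 stood at 3913 and 1459 CPM (-1.42, and -0.47 in other cells), and Csrp3, a LIM domain protein, at 425 and 95.7 CPM (-2.14, and -1.23). Car1, the erythroid carbonic anhydrase, stood at 279 and 23.9 CPM, but 86% of its control UMIs came from 1 member. Blvrb, biliverdin reductase B, stood at 176 and 49.1 CPM (-1.82, and -1.96). Anxa1 and Anxa2, annexins of the cell membrane, were higher by 1.75 and 1.24 in the other cells of the Mll4-deleted library, but stood at -0.18 and -0.68 in members.

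**Figure D4:**
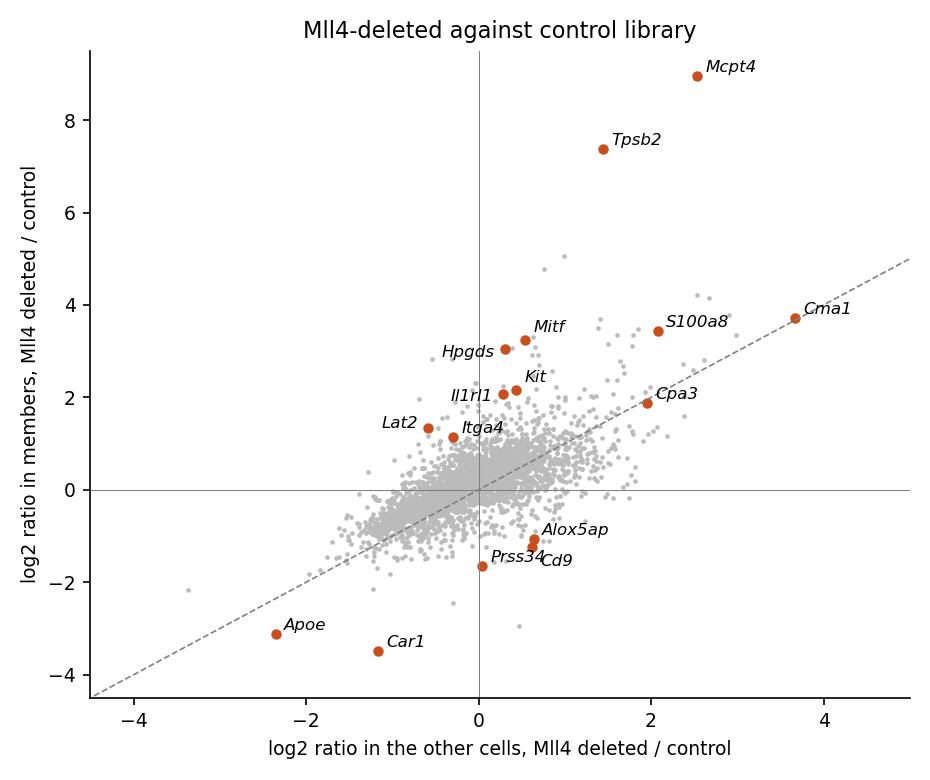
Log2 ratio of the Mll4-deleted to the control library in members (vertical) against the same ratio in the other cells (horizontal), for genes with at least 50 UMIs in either library in members, with pseudocount 1 CPM and Xist left out. Mitf, Hpgds, Kit and Il1rl1 lie above the dashed line of equal ratios, Cma1, Cpa3 and Apoe lie close to it, and Alox5ap and Cd9 have opposite signs in both sets of cells. Mcpt4 and Tpsb2 have 0 UMIs in control members, so that their height depends on the pseudocount. The other cells of the Mll4-deleted library were richer in neutrophil markers than those of control.

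The remaining lists held few calls, beside 8.47% of all genes higher and 3.43% lower. Of 13 mitosis genes tested, 1 was lower in Mll4-deleted members (Ube2c, log2 -1.04) and 0 were higher, with a median of -0.28 in members (0.18 among those with at least 3000 UMIs) and 0.27 in other cells. Of 15 replication genes 0 passed 2-fold and the median was 0.40. Mki67, a marker of dividing cells, stood at 276, 298 and 298 CPM in the members of control, Mll3-deleted and Mll4-deleted libraries, below the 530, 534 and 663 CPM of the other cells. Of 8 immediate early genes, which cell handling can induce, Fos (log2 1.41) and Jun (1.67) were higher, with 1.14 and 0.99 in other cells. Of 2 MHC class II genes tested, H2-Ab1 passed 2-fold (1.37, and 1.75 in other cells). Of 3 genes of the Mll3/4 complex tested, 0 passed 2-fold.

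The Mll3-deleted members differed from control in fewer genes, on 22 cells. Of 2277 genes tested 3.12% differed by 2-fold, 19 (0.834%) higher and 52 (2.28%) lower, and the median log2 ratio was -0.11. Of the 52, 50 reached 50 UMIs in control members alone, and control members held 727394 UMIs against 298344, so that the filter took in more genes through control. With a minimum of 200 UMIs 11 genes were higher and 6 lower. The 19 included the neutrophil genes Ngp, Lcn2, Camp, S100a8, S100a9 and Ltf, which stood 4.15 to 5.14 above control. For these genes 50% to 62% of the UMIs came from 1 of the 22 members, and the ratios in the other cells were -0.49 to -0.77. Without the members rich in neutrophil and granulocyte markers S100a8 stood at -0.26, S100a9 at -0.10 and Camp at -0.17, and 7 genes were higher. Hbb-bs and Hba-a1, globin genes, stood at 996 and 355 CPM, with 98% or more of the UMIs from 1 member. Prss34, given as a description since it is in the rule, stood at a log2 ratio of 1.90 with 62% of its UMIs in 1 member, and at 0.47 without the neutrophil-rich members.

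Several granule genes were lower in Mll3-deleted members. Cma1 (log2 -1.86, -2.80 to -1.08), Gzmb (-1.11, -1.41 to -0.82), Mcpt2 and Prg2 were the 4 lower genes of 11 tested that were not in the rule, and 0 were higher. Over all genes tested 2.28% were lower and 0.834% higher. Of the 4 granule genes, Gzmb alone reached 50 UMIs in both libraries. It rested on 5 Mll3-deleted members, with 37% of the UMIs in 1 of them. Gzmb stood at -0.83 without the neutrophil-rich members, and at -2.37 in hashtag 1 and -0.80 in hashtag 2 cells. The median of the 11 was -0.47 and that of all genes -0.11. Cma1 rested on 14 UMIs in 3 Mll3-deleted members and 126 UMIs in 8 control members. Prg2 rested almost wholly on 1 cell in each library and Mcpt2 on 1 control cell. Cpa3 stood at -0.66 (-0.85 to -0.49), and at -0.96 in the other cells. In the other lists 4 genes were 2-fold lower, and each entered through control members alone. By list these were 2 of 7 cytokine and receptor genes tested, 1 of 11 surface protein genes and 1 of 16 lineage factors. In each of those lists 0 genes were higher. The 4 genes were Il1rl1 (-1.02, from 95 and 19 UMIs), the homing receptor Cxcr4 (-1.33, 81 and 13), the activation marker Cd69 (-2.98, 82 and 4) and Meis1 (-1.13, 70 and 13). In other cells these genes stood at -0.60, -0.99, -0.94 and -0.17. Scin, an actin-severing protein, stood at 423 and 178 CPM (-1.25, and -1.34 in other cells), Ctla2a, a protease inhibitor, at 235 and 77.1 CPM (-1.60, and -0.32), and H2-T23 at 313 and 121 CPM (-1.37, and -0.86). No gene of the IgE receptor list (9 tested), the lipid mediator list (5), the replication list (13), the mitosis list (12) or the immediate early list (5) passed 2-fold. Il1rl1 was under 2-fold with TMM scaling (-0.96), and Il1rl1 (-0.98), Meis1 (-0.88) and Car2 (-0.95) were so when each cell had equal weight.

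Clustering the members alone, without the 4 rule genes, gave 4 clusters, which are called by their leading genes. Those genes differed between libraries, so cluster sizes are not compared between them. The cluster led by Cma1, Il1rl1, Gzmb and Id2 held 132 cells, 114 of them from the Mll4-deleted library, 14 from control and 4 from the Mll3-deleted library. Mitf was found in 72 of its cells, Cebpa in 2 and Kit in 128. The cluster led by Mef2c, Ctla2a and Sox4 held 74 cells, 71 of them from the Mll4-deleted library, with Ms4a2 in 73, Mcpt8 in 12 and Cma1 in 1. The cluster led by Mki67 and Top2a, genes of dividing cells, held 52 cells. The cluster led by Prss34, Ngp, Mpo and Ms4a3 held 48 cells, 20 from control, 12 from the Mll3-deleted and 16 from the Mll4-deleted library, with Cebpa in 41 and Mitf in 6. Its 10 leading genes held 5 neutrophil markers (Ngp, Camp, Ltf, S100a8 and S100a9). The first 2 clusters came mostly from 1 library and may be that library and not a type.

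Within the Cma1-led cluster the libraries could be read beside each other, on 14 control and 114 Mll4-deleted cells. Cpa3 stood at 4236 CPM in control (3843 to 4660) and 13125 in Mll4-deleted cells (12708 to 13551), and Kit at 1039 and 2586 CPM. Gzmb went the other way, at 5905 CPM in control (5438 to 6401) and 2034 in Mll4-deleted cells (1872 to 2206). Mitf was found in 4 of the 14 and 65 of the 114 cells, and Cebpa in 0 of each. Gata2 stood at 1129 and 902 CPM. Mcpt4 had 0 UMIs in the 14 control cells (interval 0 to 36.9 CPM) and 1311 CPM in the Mll4-deleted cells. Since this cluster was formed from these genes, the values describe its cells.

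Surface antibodies were not used by the rule. The median CD117 (Kit protein) count per cell was 141.5 in control members, 146.5 in Mll3-deleted members and 305 in Mll4-deleted members, against 165, 214 and 104 in the other cells. Members thus lay below the other cells in the first 2 libraries and above them in the third. The other cells of the third library were also richer in neutrophil markers, and the part of that mix in the contrast was not tested. CD48, a SLAM family protein of most progenitors, was higher in members in every library, at 676, 595 and 762 against 474, 399 and 193. CD41, the alpha IIb integrin, stood at 9.5, 8.5 and 27 in members against 4, 3 and 4, and CD34 at 12, 15 and 21.5 against 8, 10 and 7. CD16/32, the low-affinity Fc gamma receptors, stood at 91.5, 136 and 47.5 in members against 24, 24 and 105 in other cells. CD11b, the alpha M integrin, was low in members, at 4, 4.5 and 5, against 7, 5 and 182, and Gr1 stood at 26, 31 and 47 against 31, 35 and 198. The summed surface antibody counts had medians of 969, 1098 and 1412 in members and 1147, 1106 and 1393 in other cells. Across the clusters, the median CD117 was 415 in the Cma1-led, 205.5 in the Mef2c-led, 270 in the dividing and 115 in the Prss34-led cluster. CD16/32 had medians of 108.5, 9, 39 and 116 in that order, and CD41 of 10.5, 46, 31.5 and 12.

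**Figure D5:**
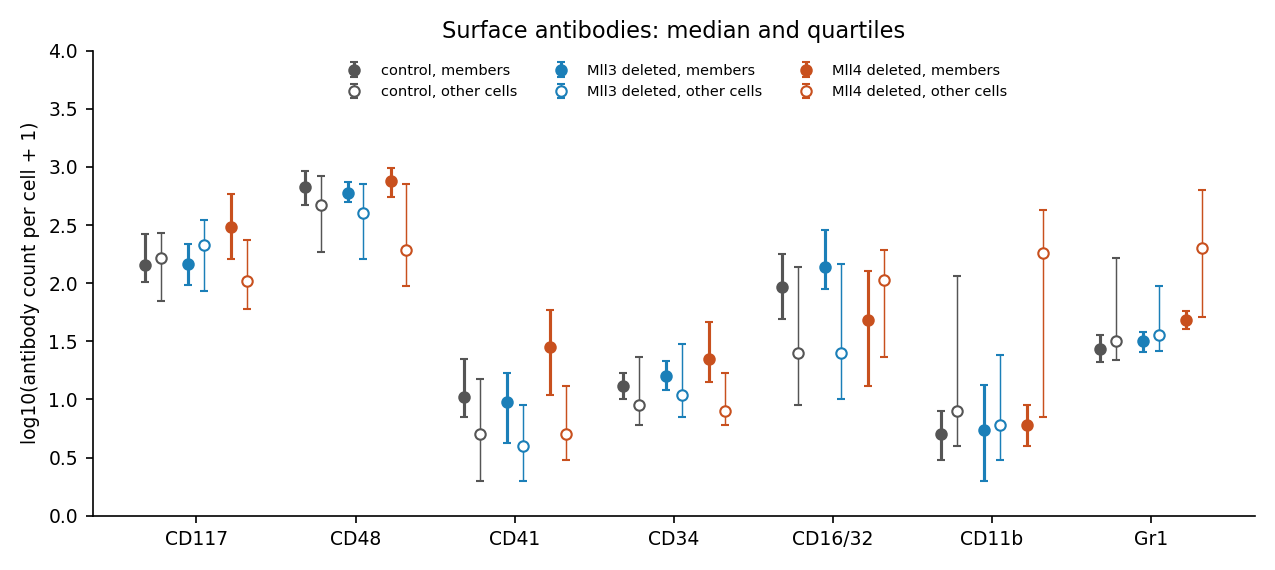
Antibody counts per cell, as log10 of the count plus 1, in members (filled) and in the other cells of the same library (open). Points are medians and bars are quartiles over cells, which are not replicates. CD117 and CD41 are highest in Mll4-deleted members, at medians of 305 and 27, and CD16/32 is lowest there, at 47.5.

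The 2 hashtags of each library gave like shares of members but unlike Cma1 in control and in the Mll4-deleted library. Members were 0.608% of hashtag 1 cells and 0.804% of hashtag 2 cells in control, 0.277% and 0.461% with Mll3 deleted, and 4.03% (3.33 to 4.83) and 4.59% (3.8 to 5.49) with Mll4 deleted. There Cma1 was found in 22.3% of the 112 hashtag 1 members and 50% of the 114 hashtag 2 members, at 1005 and 3621 CPM. Mcpt4 was found in 3 and 16 of them, at 66.0 and 944 CPM, and Mitf in 28.6% and 40.4%. Mcpt8 was alike, in 48.2% and 48.2% of members and at 2373 and 2432 CPM. In control Cma1 was found in 13% of 23 and 17.2% of 29 members, at 43.9 and 337 CPM, and with Mll3 deleted it stood at 59.8 and 43.7 CPM. The labels do not link a hashtag number of 1 library to that of another, so ratios by number are a description. Relative to control members of the same number, Cma1 was higher by 4.49 in hashtag 1 and 3.42 in hashtag 2 members of the Mll4-deleted library. Cpa3 was higher by 1.36 and 2.14, and Kit by 2.10 and 2.10. In control, hashtag 1 held 15 Cma1 UMIs in 3 members.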

How the data were processed

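Single-cell gene expression and barcoded surface antibodies were measured in 4 libraries with the 10x Genomics 3′ version 3.1 chemistry, per the labels' protocols. Raw UMI counts per barcode are what the deposited matrices give, for 32285 genes, 13 surface antibodies and 2 hashtags. The authors made these counts with Cell Ranger 6.1.2 on mm10, per the submitters' processing notes, and how cells were called is not given in the sources used here. Total gene UMIs were 174795636 in control, 161119914 in the Mll3-deleted, 36413830 in the Mll4-deleted and 86721050 in the Mll3/4-deleted library.

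From these counts UMIs were summed over the members of each library and given as CPM with exact Poisson intervals. Shares of cells have exact Clopper-Pearson intervals. Log2 ratios of gene levels include a pseudocount of 1 CPM. The exact conditional binomial intervals of ratios come from the counts without a pseudocount. A gene was tested for a 2-fold difference with at least 50 UMIs in either library, and shares of cells with a UMI were repeated with every cell thinned to 1000 UMIs. Hashtags were called by a Gaussian mixture. Members were clustered with scanpy 1.11.5 and leidenalg 0.10.2 (resolution 0.5, seed 0) without the rule genes, Xist, Y-linked and mitochondrial genes. Doublets were kept in the values reported and scored with Scrublet for an alternative. TMM factors came from edgeR 4.0.16 and served only for scaling. Counts were not corrected for free RNA. The interval code was tested on simulated data.

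The members, the 12 gene lists and the 13 marker classes were chosen with earlier results of these data known. The result of 1 gene list is not reported here. Genes were named if they were rule genes or given markers, among the 8 highest or 8 lowest by the interval bound nearest 0 or the 5 with the largest difference from the other cells (at least 100 UMIs), or in a list and past 2-fold, or else among its most abundant genes. Kmt2c, Kmt2d, Xist, cluster genes and genes of known role (Srgn, Cd63, Ctsg, Fcer1g, Gata2, Runx1, Cebpa, Hdc, Mki67) were added as description.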

Additional observations from a re-analysis of the deposited data

Results flagged for a closer look

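The libraries of the 2 single deletions differed from the same control library in opposite directions in several measures of these cells. In none of them was the difference between the deletions tested, since each group has 1 library and the comparisons share the control. The share of members had a log2 ratio to control of -1.003 with Mll3 deleted and 2.55 with Mll4 deleted. Cma1 stood at -1.862 and 3.709 in members, Cpa3 at -0.6648 and 1.87, and Prss34 at 1.897 and -1.641. For the share, Cma1 and Cpa3 both counting intervals lay on their own side of 0. That of the Mll3 share took in 0 at score thresholds of 20 and 50 and within each hashtag. Cma1 rested on 14 UMIs in 3 Mll3-deleted members and 126 UMIs in 8 control members. By hashtag it stood at 43.9 and 337 CPM in control members and at 59.8 and 43.7 CPM with Mll3 deleted. The higher control level of Cma1 thus rested on 1 of the 2 hashtags. Prss34 is part of the rule, so its ratios are a description. The Prss34 sums rested on 11, 6 and 9 cells in control, Mll3-deleted and Mll4-deleted members, with 37% to 62% of the UMIs in 1 cell per library.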

How the results depend on the processing

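The share of members kept its direction in both deletions under every alternative run. In the Mll3-deleted library its log2 ratio ranged from -1.262 to -0.444, and its counting interval took in 0 at score thresholds of 20 (upper bound 0.034) and 50 (1.16) and in hashtag 1 (0.032) and hashtag 2 (0.214) cells. In the Mll4-deleted library it was 1.901 at a score threshold of 5, 1.724 with at least 3000 UMIs, 1.751 with cells thinned to 2000 UMIs and 3.18 without cells rich in neutrophil markers. The numbers of genes past 2-fold moved with the filters, the scaling and the pseudocount. For Mll3, the 19 higher genes became 7 without the highest Scrublet scores or without the neutrophil-rich members, 50 and 11 with minimums of 20 and 200 UMIs, and 10 in hashtag 1 cells. The 52 lower genes became 16 at a score threshold of 50, 33 without the highest Scrublet scores, 28 with a pseudocount of 10 CPM, 368 and 6 with minimums of 20 and 200 UMIs, and 17 in hashtag 2 cells. For Mll4, the 252 higher genes became 157 and 66 at thresholds of 20 and 50, 107 with at least 3000 UMIs, 164 with TMM scaling, 678 and 53 with the 2 minimums, and 116 and 145 in hashtag 1 and 2 cells. The 102 lower genes became 49 and 21, 234 with TMM scaling, 219 and 24 with the minimums, and 62 in hashtag 2 cells. The hashtag and neutrophil-rich settings for shares were chosen after seeing the data.

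Under at least 1 alternative 8 of 71 named gene ratios and 8 of 22 list medians changed sign. Among them 5 genes that were past 2-fold and 1 list median whose median counting bounds lay off 0 did so. The other 3 genes were Mcpt8, Ms4a2 and Fcer1a with Mll3 deleted, where Mcpt8 turned from 0.334 to -1.164 without the neutrophil-rich members and to -0.194 without the highest Scrublet scores. Against control, in Mll3-deleted members S100a8 stood at -0.525, S100a9 at -0.343, Camp at -0.365 and Ngp at -0.114 without the highest Scrublet scores. Without the neutrophil-rich members S100a8 stood at -0.255, S100a9 at -0.0978 and Camp at -0.165, and in hashtag 1 cells at -0.59, -0.459 and -0.489. Prg2 stood at 0.949 at a threshold of 5. The adhesion list in Mll4-deleted members had a median of -0.219 with at least 3000 UMIs, where the cytokine list stood at -0.21, the granule list at -0.241 and the mitosis list at 0.18. With TMM scaling the granule list stood at -0.0502. The cause of these changes was not tested. No paired analysis was possible because each group has 1 library. Depth limits detection most in the Mll4-deleted library, and 22 members limit every Mll3 value.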

Other observations

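The library deleted for both Mll3 and Mll4 held 5 cells under the same rule, with a median score of 15.7 and a highest score of 30.3 per 10000, and 0 cells at 8 to 10 per 10000. In that library 99.7% of the other cells had 0 UMIs of the 4 rule genes, against 83.4% in control, 89.6% in the Mll3-deleted and 89.1% in the Mll4-deleted library. Its median member held 8660 gene UMIs, against 10902 in control and 3012.5 in the Mll4-deleted library. Its other cells held a median of 10108, against 16104 and 5282. The part of depth in these numbers was not tested.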
